A study of Mus musculus with 48 samples.

Results

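The 9 genes described here carry the signal of interferon-γ (IFN-γ) from the cell surface and limit it: the receptor chains Ifngr1 and Ifngr2, the Janus kinases Jak1 and Jak2, the transcription factors Stat2 and Stat3, the suppressors of cytokine signaling Socs1 and Socs3, and the kinase Pim1. They were chosen by symbol from the 49568 genes of the mouse count table, and 9 of 9 were found and had enough reads to be tested in every comparison. RNA was sequenced from RAW264.7, an established mouse macrophage line, after 72 h without or with IFN-γ at 5 ng/ml. Each condition was combined with PBS or with 1 of 3 synthetic 15-residue peptides at 100 µg/ml, each taken from the same segment of the HLA-DR β chain, and the medium was replaced at 48 h. LE has the sequence of the lupus risk allele DRB1*03:01, SE that of the rheumatoid arthritis risk allele DRB1*04:01 and PE that of DRB1*04:02, an allele associated with protection. The 8 groups were therefore PBS, LE, SE, PE, IFN-γ, LE+IFN-γ, SE+IFN-γ and PE+IFN-γ. All libraries came from this 1 line and from cells in culture, so the groups model macrophages that meet a free peptide, not an animal or a presented antigen.

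IFN-γ binds a receptor built of the IFNGR1 and IFNGR2 chains, which hold the kinases JAK1 and JAK2. The kinases phosphorylate STAT proteins, whose dimers bind gamma-activated sites (GAS) in DNA, while STAT2 acts in a complex with IRF9 at interferon-stimulated response elements (ISRE) and STAT3 is best known downstream of the interleukin-6 and interleukin-10 receptors. SOCS1 and SOCS3 are made in response to these signals and inhibit the kinases or receptors, and PIM1 is a serine/threonine kinase whose gene is a known STAT target. In macrophages this pathway drives antigen presentation and the killing of microbes.

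Each group held 6 libraries, 3 named by a letter and 3 by an HLA label, and the libraries of the 2 kinds did not behave alike. Total counts were 16498562 to 26929356 in the 24 letter-labelled libraries and 14115928 to 42574154 in the 24 HLA-labelled ones. As a check of the labels, 22 genes known as targets of IFN-γ were averaged as log2 CPM (counts of a gene per 1000000 counts of its library), which gave 6.72 to 7.17 in the letter-labelled libraries with IFN-γ and 0.826 to 1.26 in those without. In the HLA-labelled libraries 12 of 24 went against their labels: those labelled IFN-γ and SE+IFN-γ were low (0.527 to 1.42) and those labelled LE and PE were high (7.19 to 7.43). In the deposited table the columns of these libraries also stand in another order than their labels give: the 12 low libraries stand beside letter-named groups without IFN-γ and the 12 high ones beside groups with it. Values printed by HLA label may therefore belong to other conditions. All results below rest on the 3 letter-labelled libraries of each group, and the HLA-labelled libraries are described at the end. Of 8 macrophage markers 7 reached 1 CPM, Mertk being the exception. Their summed level was 9033 to 11334 CPM without IFN-γ and 6386 to 8711 CPM with it, and whether this shift has a part in the results was not tested. Of the markers of other cells, 0 of 4 B cell, 0 of 2 NK cell and 0 of 3 epithelial markers reached 1 CPM, as did 1 of 5 T cell markers (Lck) and 1 of 4 fibroblast markers (Pdgfra). In bulk RNA, a change in the number of cells that make a transcript and a change in the amount per cell cannot be told apart.

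The promoter sequences below show which of the 9 genes have, next to the start of transcription, the letters that STAT dimers and interferon-regulated factors are known to bind. All 9 members had an entry in RefSeq (GRCm38.p6), with 10 windows of 250 bases before to 50 bases after the start. Both strands were searched for TTCNNNGAA (GAS), for TTCCNGGAA (a stricter form, contained in the first) and for 2 copies of GAAA with any 2 bases between them (ISRE). The windows with a match are printed 5′ to 3′ on the gene's own strand, with the matching letters in capitals. The Socs1 window is at chr16:10785487-10785786 on the minus strand, the Socs3 window at chr11:117969317-117969616 on the minus strand and the Stat2 window at chr10:128270248-128270547 on the plus strand.
Socs1: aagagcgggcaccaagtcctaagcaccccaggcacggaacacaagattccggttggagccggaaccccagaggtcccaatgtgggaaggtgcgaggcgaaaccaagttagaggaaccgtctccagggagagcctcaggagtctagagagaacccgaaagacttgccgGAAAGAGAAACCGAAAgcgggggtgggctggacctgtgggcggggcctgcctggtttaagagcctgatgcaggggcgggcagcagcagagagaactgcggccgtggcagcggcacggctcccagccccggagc
Socs3: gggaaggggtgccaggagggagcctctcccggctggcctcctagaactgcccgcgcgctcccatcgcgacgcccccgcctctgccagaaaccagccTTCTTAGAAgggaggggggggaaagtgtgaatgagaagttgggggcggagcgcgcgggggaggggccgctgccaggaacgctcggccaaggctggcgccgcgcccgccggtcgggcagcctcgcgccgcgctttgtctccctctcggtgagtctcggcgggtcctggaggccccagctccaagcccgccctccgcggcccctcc
Stat2: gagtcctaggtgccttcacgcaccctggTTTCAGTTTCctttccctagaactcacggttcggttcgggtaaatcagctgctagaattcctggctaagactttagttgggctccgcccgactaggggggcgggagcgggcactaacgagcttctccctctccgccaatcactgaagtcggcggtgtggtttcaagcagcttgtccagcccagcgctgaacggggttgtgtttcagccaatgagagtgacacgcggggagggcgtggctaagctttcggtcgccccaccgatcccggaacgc
The Socs1 window held GAAAGAGAAA and GAAACCGAAA, overlapping each other, which begin 83 and 77 bases before the start. The Socs3 window held TTCTTAGAA, which begins 154 bases before the RefSeq start. This window lies inside the Socs3 gene as GENCODE gives it (chr11:117966079-117970047), whose start is further upstream. In the Stat2 window the ISRE letters lay on the reverse strand and read TTTCAGTTTC on the printed strand, beginning 222 bases before the start. Thus 1 of 9 members had the GAS letters and 2 of 9 the ISRE letters. Over 27025 genes the shares were 9.55% and 3.99%. The stricter form was found in 0 of 9 members and in 1.35% of genes.

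Without any stimulus the 9 genes lay far apart in level. Per kilobase of exon, PBS libraries had 36.4 ± 2.09 CPM (SD, n = 3) of Ifngr2 and 23.4 CPM of Jak1, against 13.7 CPM of Ifngr1, 10.2 of Stat2, 9.30 of Stat3, 7.21 of Jak2 and 5.45 of Pim1. The inhibitors were lowest, with 2.34 CPM per kilobase of Socs3 and 0.437 of Socs1. In this order of levels the only neighbors whose PBS libraries overlapped were Stat2 and Stat3. The order was different after IFN-γ alone, with Jak1 at 29.0, Stat2 at 24.9 and Ifngr2 at 23.0 CPM per kilobase, neighbors that overlapped. After IFN-γ with LE, Pim1 (34.6 CPM per kilobase) was second only to Jak1 (49.2). With SE the means stood in the same order (31.5 and 36.7), but Pim1 overlapped with Jak1 and with Ifngr2. Socs1 stayed lowest, at 1.32 with LE and 1.54 with SE. All other levels below are in CPM and compare 1 gene between groups.

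**Figure D1:**
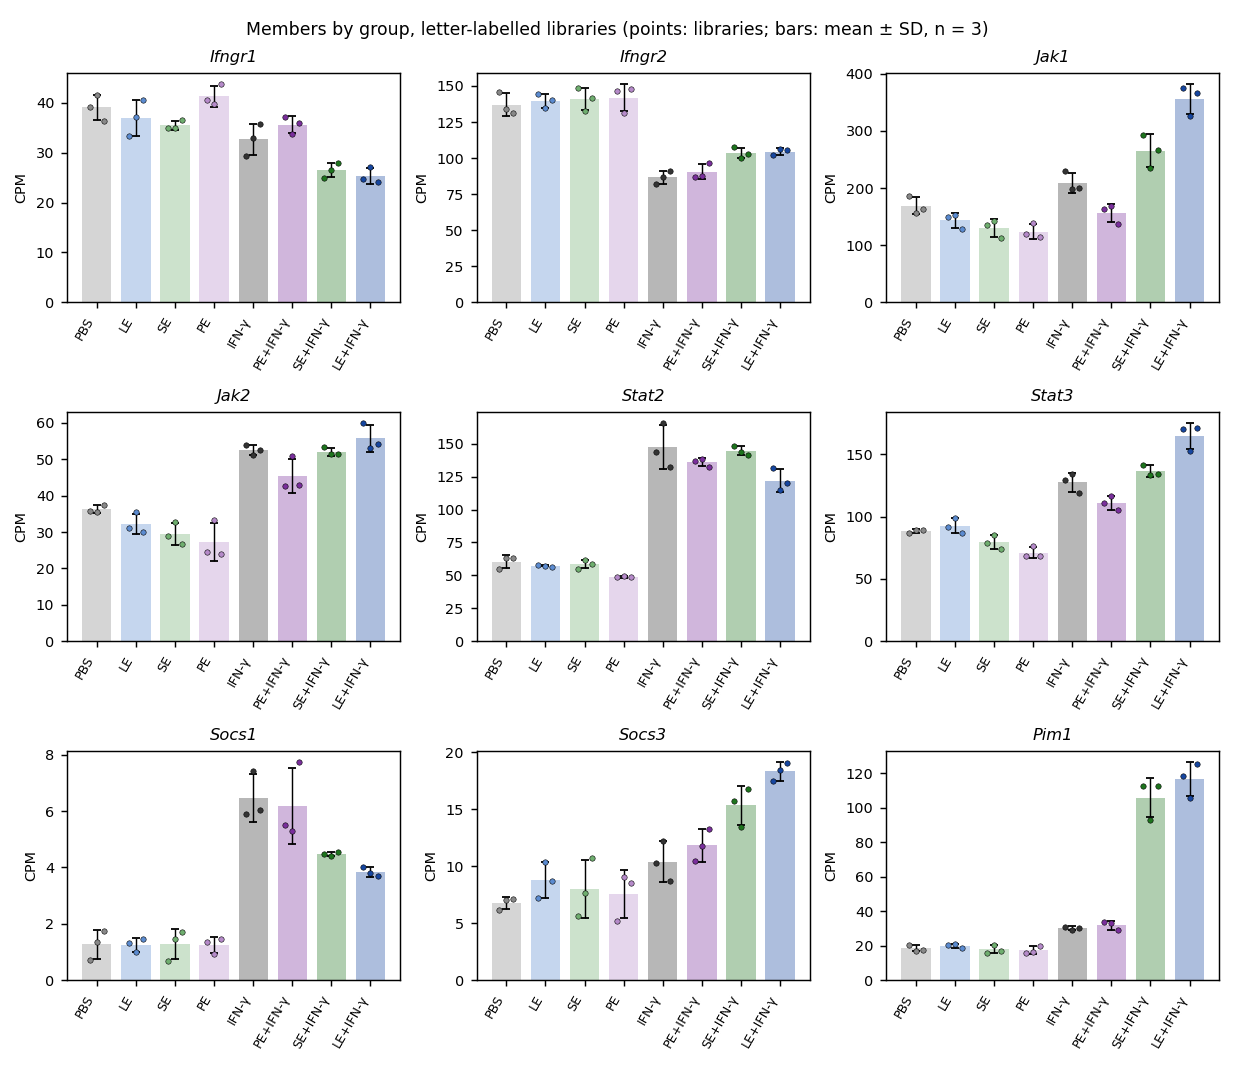
Level of each of the 9 genes in the 24 letter-labelled libraries, in CPM on axes that start at 0. Points are libraries, bars are group means and error bars are SD (n = 3 per group). Pim1 stands near 116 and 106 CPM in LE+IFN-γ and SE+IFN-γ and at or below 33.4 CPM in every library of the other 6 groups.

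The first comparison asks what IFN-γ alone did to its own pathway. A gene was called changed when the edgeR quasi-likelihood test gave an adjusted p under 0.05 over all genes tested and the fold was over 1.5. IFN-γ changed 5 of the 9 genes, 4 higher and 1 lower, and 18.1% of the 12242 genes tested (9.79% higher and 8.28% lower). The median log2 fold change was 0.55 over the 9 genes and -0.01 over all genes. The replicates may have come from 1 experiment, in which case the p-values measure only the spread between these libraries.

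Of the receptor chains, Ifngr2 (chr16:91547072-91565623, GRCm38), the chain that brings JAK2 to the receptor, fell. It was at 146, 134 and 131 CPM in PBS and 82.3, 86.9 and 91.0 CPM in IFN-γ, so that the groups did not overlap (log2 fold change -0.64 ± 0.0731 SE, adjusted p = 3.88e-05). Without replicate 1 the fall was -0.56 and under the fold threshold. Ifngr1 (chr10:19591949-19610229), the ligand-binding chain, was at 39.1 ± 2.56 CPM in PBS and 32.7 ± 3.15 CPM in IFN-γ (SD, n = 3). Its log2 difference of -0.24 had an adjusted p of 0.0742.

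The kinases were higher by less than 1.5-fold. Jak1 (chr4:101152367-101265282), which binds IFNGR1 and also serves many other cytokine receptors, was at 186, 157 and 164 CPM in PBS and 229.8, 198 and 200.3 CPM in IFN-γ (0.32 ± 0.0804, adjusted p = 0.00748). Jak2 (chr19:29251828-29313080) was at 36.3 ± 1.04 CPM in PBS and 52.5 ± 1.34 CPM in IFN-γ, a log2 difference of 0.55 ± 0.0762 (adjusted p = 0.000161). Both were higher in every IFN-γ library than in any PBS library.

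Stat2 (chr10:128270559-128292849) was the transcription factor of the pair that was called. Its levels of 54.8, 63.0 and 63.3 CPM in PBS stood against 144, 166 and 133 CPM in IFN-γ, a fold of 2.47 (log2 1.31 ± 0.0953, adjusted p = 1.06e-06). Stat3 (chr11:100885098-100939540) went from 88.6 ± 1.72 to 127 ± 7.91 CPM, which passed the p threshold (adjusted p = 8.87e-05) but not the fold (log2 0.54). The groups did not overlap for either gene.

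Of the feedback genes, Socs1 (chr16:10782240-10785536), an inhibitor of JAK kinases, had the largest fold of the 9 in this comparison. It was at 0.718, 1.36 and 1.74 CPM in PBS and 5.90, 7.44 and 6.04 CPM in IFN-γ, which is 5.17-fold (log2 2.37 ± 0.276, adjusted p = 4.69e-05). These levels rest on 17 to 37 reads per PBS library and 128 to 182 per IFN-γ library. Socs3 (chr11:117966079-117970047), which acts mainly on the interleukin-6 receptor family, was at 6.17, 7.02 and 7.13 CPM in PBS and 10.3, 12.2 and 8.68 CPM in IFN-γ. Its log2 rise of 0.64 ± 0.157 was just past the fold threshold (adjusted p = 0.00733), and it was 0.53 and not called without replicate 2, and 0.57 with the median of genes of similar length taken off. Pim1 (chr17:29490753-29496112) was at 20.3, 17.1 and 17.5 CPM in PBS and 31.0, 28.8 and 30.1 CPM in IFN-γ (log2 0.73 ± 0.0955, adjusted p = 0.000109).

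The peptides alone, without IFN-γ, did not bring any of the 9 genes past the thresholds of the edgeR test against PBS. The count was 0 of 9 with each peptide, and of 12420 genes LE called 0.0242%, SE 1.92% and PE 3.13%. An unadjusted p under 0.05 was reached by 0 members with LE, 1 with SE and 4 with PE, against 15.7%, 32.0% and 35.5% of all genes, and DESeq2 also called 0 each time. Jak1 passed the p threshold with SE and with PE, at less than 1.5-fold. It was at 169 ± 15.4 CPM in PBS, 143 ± 13.6 in LE, 130 ± 16.1 in SE and 124 ± 12.6 in PE. The log2 differences from PBS were -0.31 for SE (adjusted p = 0.037) and -0.36 for PE (adjusted p = 0.0162), and that of Stat3 was -0.23 for PE (adjusted p = 0.0278). In these comparisons longer genes tended to be lower with the peptide, with a Spearman correlation between log2 fold change and exon length across genes, which are not independent, of -0.44 for SE and -0.452 for PE. After the median of the genes nearest in exon length was taken off, the differences of Jak1 were -0.20 and -0.24 and that of Stat3 was -0.05. Group means over the 4 groups without IFN-γ were 1.24 to 1.28 CPM for Socs1 and 17.2 to 19.9 CPM for Pim1.

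In the presence of IFN-γ the 3 peptides gave different counts of called genes, although LE and SE, compared directly below, differed in 0 called genes of the 9. Peptide plus IFN-γ was compared with IFN-γ alone, the contrast that the study names Model A, which asks what the peptide adds to the cytokine. LE called 4 of the 9 genes (Jak1, Socs3 and Pim1 higher, Socs1 lower), SE 1 (Pim1) and PE 0. Of the 12720 genes tested LE called 15.5% (9.58% higher and 5.93% lower), SE 7.39% (5.01% higher) and PE 0.629%. With PE, 3 of the 9 and 28.1% of all genes had an unadjusted p under 0.05, and DESeq2 called 0 members. The 3 contrasts use the same IFN-γ libraries, which also stand in the comparison with PBS above, so they are not independent of each other.

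**Figure D2:**
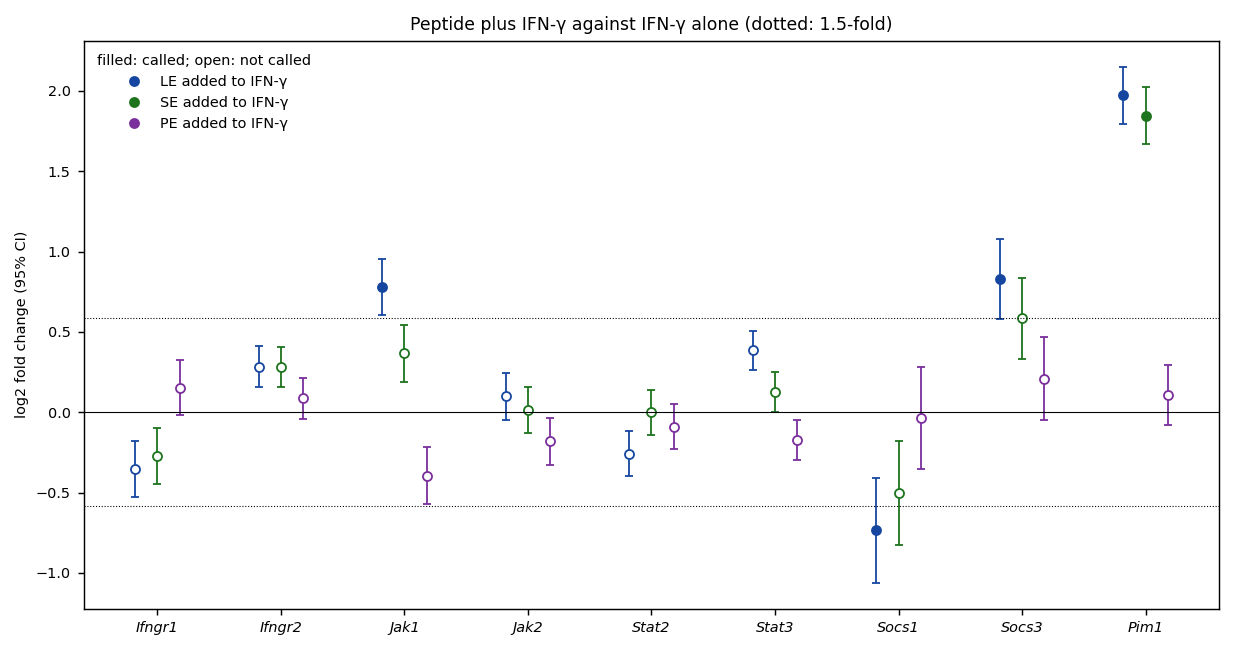
Log2 fold change of each gene for LE, SE or PE plus IFN-γ against IFN-γ alone, with 95% confidence intervals from the edgeR fit. Filled points were called and dotted lines mark 1.5-fold. Pim1 lies near 1.97 for LE and 1.85 for SE, and the interval of PE includes 0.

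Pim1 had the largest change. It was at 31.0, 28.8 and 30.1 CPM in IFN-γ, 118, 106 and 125 CPM in LE+IFN-γ, 112, 92.7 and 112 CPM in SE+IFN-γ and 33.4, 32.9 and 28.8 CPM in PE+IFN-γ. The LE and SE libraries were all far above the rest, and those of PE overlapped with IFN-γ alone. The folds were 3.93 for LE (log2 1.97 ± 0.0849, adjusted p = 1.79e-11) and 3.60 for SE (1.85 ± 0.0849, adjusted p = 6.59e-11). For PE the log2 difference was 0.11 with a 95% interval of -0.08 to 0.29. Pim1 is among the genes that the study itself picked out of these libraries, so its rise is not independent evidence.

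The inhibitors Socs1 and Socs3, both higher after IFN-γ alone, changed in opposite directions when LE was added. Socs1 was at 4.03, 3.79 and 3.71 CPM in LE+IFN-γ, below the 5.90 to 7.44 CPM of IFN-γ alone (log2 -0.73 ± 0.156, adjusted p = 0.000748). With SE it was at 4.47, 4.42 and 4.54 CPM, and its log2 difference of -0.50 ± 0.154 passed the p threshold (adjusted p = 0.0175) but not the fold. With PE it was at 5.51, 5.29 and 7.75 CPM and overlapped with IFN-γ alone. All peptide and IFN-γ libraries nonetheless remained above the highest library without IFN-γ, at 1.74 CPM.

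Socs3 was at 17.5, 18.5 and 19.1 CPM in LE+IFN-γ against 8.68 to 12.2 CPM in IFN-γ alone, a fold of 1.78 (log2 0.83 ± 0.119, adjusted p = 1.58e-05). In SE+IFN-γ it was at 15.7, 13.4 and 16.8 CPM, again with no overlap. Its log2 difference of 0.58 ± 0.12 (adjusted p = 0.00108) fell just short of 1.5-fold. Without replicate 2 it was 0.80 and DESeq2 gave 0.59, both called, which makes the count for SE 2 of 9. Over all genes those settings called 936 and 884, against 940 in the main fit. In PE+IFN-γ it was at 10.4, 11.7 and 13.3 CPM and overlapped with IFN-γ alone.

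Of the kinases, Jak1 moved with the peptides and Jak2 did not pass the test. Jak1 was at 375, 326 and 366 CPM in LE+IFN-γ, 293, 235 and 267 CPM in SE+IFN-γ and 163, 168 and 138 CPM in PE+IFN-γ, around the 198 to 229.8 CPM of IFN-γ alone. The 4 groups did not overlap. The LE difference was 0.78 ± 0.0837 on the log2 scale (adjusted p = 6.08e-07, called), the SE difference 0.37 ± 0.0837 (adjusted p = 0.00238) and the PE difference -0.40 ± 0.0845 (adjusted p = 0.0113), the last 2 under the fold threshold. Across genes, the Spearman correlation of log2 fold change with exon length was -0.386 for PE, and -0.32 remained of the Jak1 difference after the median of genes of similar length was taken off. For LE the correlation was 0.213, and 0.68 remained of the Jak1 difference. Jak2 means were 45.5 to 55.7 CPM over the 4 groups with IFN-γ.

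The transcription factors and receptor chains moved by less than 1.5-fold. Stat3 was at 170.3, 153 and 171 CPM in LE+IFN-γ against 119 to 134 CPM in IFN-γ alone (log2 0.39 ± 0.0583, adjusted p = 2.82e-05), while Stat2 was lower, at 131, 115 and 120.3 CPM against 133 to 166 CPM (-0.26 ± 0.0658, adjusted p = 0.00327). The receptor chains went opposite ways with LE and with SE. Ifngr1 was at 25.3 ± 1.64 CPM in LE+IFN-γ and 26.5 ± 1.47 CPM in SE+IFN-γ, lower by log2 0.35 and 0.27 than IFN-γ alone at 32.7 ± 3.15 CPM (adjusted p = 0.00174 and 0.0163). Ifngr2 was at 105 ± 2.34 and 103 ± 3.61 CPM, higher by 0.28 in each (adjusted p = 0.000726 and 0.00149) than IFN-γ alone at 86.7 ± 4.35 CPM. It was still below the 131 CPM of the lowest PBS library. With the median of genes of similar length taken off, the LE differences were 0.29 for Stat3, -0.27 for Stat2, -0.24 for Ifngr1 and 0.34 for Ifngr2.

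The peptides were compared directly at the same dose and time, as plus IFN-γ groups, in 3 pairs and with p adjusted over all genes. They are the same length and differ in the residues that their DRB1 alleles encode. LE and PE differed in 4 called genes, where 21.6% of genes were called (12.7% higher and 8.94% lower): Jak1 (log2 1.17 ± 0.0847, higher with LE), Pim1 (1.87 ± 0.0844), Socs3 (0.62 ± 0.117) and Socs1 (-0.70 ± 0.156), with adjusted p of 5.04e-09, 4.41e-11, 0.000196 and 0.000897 by edgeR. Without replicate 3 the Socs1 difference was -0.48, and without replicate 1 the Socs3 difference was 0.58, neither of them called. SE and PE differed in 2 called genes, Jak1 (0.76 ± 0.0845, adjusted p = 2.48e-06) and Pim1 (1.74 ± 0.0844, adjusted p = 2.50e-10), where 7.59% of genes were called and 5.25% called higher. The differences in these pairs take no mean from the libraries with IFN-γ alone, which stand in the same fit and share in its estimate of the spread. Exon length correlated with the log2 fold change across genes in LE against PE (Spearman 0.348), and after the median of genes of similar length was taken off, the differences were 1.00 for Jak1, 0.78 for Socs3 and -0.55 for Socs1, the last under 1.5-fold.

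LE and SE differed in 0 called genes of the 9, where edgeR called 4.93% of genes, and DESeq2 called 0 as well. An unadjusted p under 0.05 was found for 4 of the 9 and for 45.2% of all genes. Of these, 3 passed the adjusted threshold at less than 1.5-fold, as 35.6% of all genes did at any fold: Jak1 was higher with LE by log2 0.41 (95% interval 0.24 to 0.59), Stat3 was higher by 0.26 and Stat2 lower by 0.26 (adjusted p = 0.0012, 0.00263 and 0.0062). With the median of genes of similar length taken off (Spearman correlation with exon length 0.355), Jak1 was at 0.32 and Stat3 at 0.13. For the genes that did not pass, the intervals were -0.04 to 0.29 for Pim1, -0.57 to 0.11 for Socs1 and 0.00 to 0.48 for Socs3. Pim1 in LE+IFN-γ and SE+IFN-γ overlapped, and Jak1 did not.

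The study's Model B sets peptide plus IFN-γ against the same peptide alone and so asks what IFN-γ does in cells that also received a peptide. With each peptide 7 of the 9 genes were called, where 35.1% (LE), 26.3% (SE) and 21.0% (PE) of 12947 genes were. Called higher were 19.1%, 15.1% and 12.1%, and called lower with PE were 8.82%. The 7 were Jak1, Jak2, Stat2, Stat3, Socs1, Socs3 and Pim1, all higher, for LE and SE. For PE they were the same genes without Jak1, and Ifngr2, which was lower. The range over peptides was widest for Pim1, at 2.52 (LE), 2.54 (SE) and 0.83 (PE) on the log2 scale, and for Jak1, with 1.29, 0.99 and 0.28. Stat2 rose by 1.07, 1.27 and 1.42 and Socs1 by 1.60, 1.79 and 2.29, in both cases least with LE. Without replicate 1 the PE differences of Stat3 (0.58) and Socs3 (0.47) were not called, where all 3 replicates gave 0.59 and 0.60, and with the length median taken off they were 0.55 and 0.56. The LE difference of Stat3 was 0.81, and 0.594 with the length median taken off, still over 1.5-fold.

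**Figure D3:**
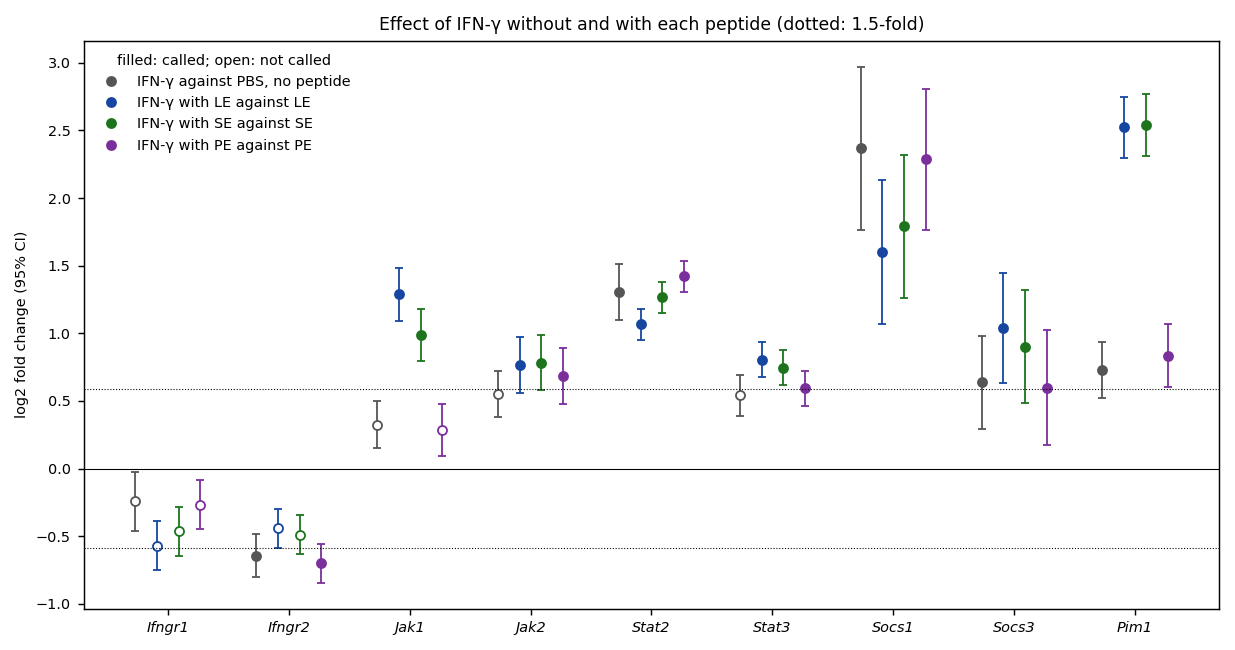
Log2 fold change with IFN-γ for each gene without peptide and with LE, SE or PE, with 95% confidence intervals. The Pim1 points lie at 0.73 without peptide, 2.52 with LE, 2.54 with SE and 0.83 with PE, and those of Ifngr2 are below 0 in all 4.

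Whether the effect of IFN-γ itself differed with a peptide was tested as an interaction, in a fit of all 8 groups. It was called for Jak1 and Pim1 with LE and with SE, 2 of the 9 genes in each, where 18.9% and 7.96% of 13096 genes were called, and 11.3% and 5.08% were called in the direction of a greater effect. For Pim1 the effect of IFN-γ was greater by log2 1.80 ± 0.148 with LE (adjusted p = 8.25e-09) and 1.82 ± 0.149 with SE (adjusted p = 1.01e-07). For Jak1 it was greater by 0.96 ± 0.131 (adjusted p = 5.03e-06) and 0.67 ± 0.131 (adjusted p = 0.000771), the latter 0.58 and not called without replicate 3. With the length median taken off (Spearman correlations 0.309 and 0.264) the Jak1 values were 0.81 and 0.55, the latter under 1.5-fold. The interactions of Socs1 with LE (-0.77, 95% interval -1.57 to 0.03) and of Socs3 with LE (0.40, -0.17 to 0.98) did not pass. With PE 0 of the 9 genes, and 0 of all genes tested, were called by edgeR, and 0 of the 9 had an unadjusted p under 0.05 (8.19% of all genes did) or were called by DESeq2.

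Over the 24 letter-labelled libraries, the genes closest to the feedback genes in pattern were taken by Pearson's r of log2 CPM among 8629 or more other genes with a mean of at least 10 CPM. The points share the IFN-γ treatment, and the values are a description. Pim1 was most like Ankrd50 (r = 0.985), Rgl1 (0.984) and Dusp4 (0.983). Dusp4, a phosphatase of MAP kinases, was at 132 ± 6.91 CPM in IFN-γ, 394 ± 32.2 in LE+IFN-γ, 291 ± 33.1 in SE+IFN-γ and 117 ± 10.4 in PE+IFN-γ. Socs3 was most like Tnf (0.938), Acod1 (0.935) and Rnf19b (0.927). Acod1, the enzyme that makes itaconate, was at 95.7 ± 24.8 CPM in IFN-γ, 456 ± 49.0 in LE+IFN-γ, 371 ± 57.2 in SE+IFN-γ and 79.9 ± 4.47 in PE+IFN-γ. Socs1 was most like Polr3c, Tmem173 and Ciz1 (0.964 each). Tmem173, which encodes the DNA-sensing adaptor STING, was at 112 ± 8.62 CPM in IFN-γ and 79.8 ± 2.65 CPM in LE+IFN-γ.

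Other genes of the pathway were counted in lists set up by role, and the counts are to be read against the 18.1% of all genes called by IFN-γ alone (9.79% higher and 8.28% lower). With IFN-γ alone, of 13 tested cytokine receptor genes 3 were higher (Csf3r 1.14, Il4ra 1.11 and Il2rg 0.68) and 2 lower (Il6ra -0.77 and Csf2rb -0.67). Of 14 tested inhibitors 1 was higher, the tyrosine phosphatase gene Ptpn2 (0.61), and of the 2 other PIM kinase genes Pim2 was higher (0.70). Of 15 listed ligands 5 were tested and 4 were higher: Il6 (4.17), Il27 (2.83), Il15 (0.91) and Osm (0.77). Il6 and Il27 had 3 to 7 and 5 to 9 reads per PBS library and 74 to 92 and 53 to 57 with IFN-γ. Both had enough reads to be tested only through the libraries with IFN-γ. The ligand count is therefore not to be read against the share of all genes.

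Added to IFN-γ, LE called 1 of the 13 receptors (Csf3r, log2 0.62) and 1 of 15 inhibitors, where 15.5% of all genes were called. The inhibitor was Cish, a SOCS family gene at 3 to 7 reads per library in IFN-γ and 9 to 14 in LE+IFN-γ. SE called 0 and 1 (again Cish, with 13 to 21 reads) and PE 0 in both lists, where 7.39% and 0.629% of all genes were called. Of 7 tested ligands LE and SE each called Csf3 and Il27 (Il27 from 2.35 ± 0.19 CPM in IFN-γ to 4.38 ± 0.223 and 6.52 ± 0.886) and PE called Csf3. Csf3, the ligand G-CSF, was at 0 or 1 reads in IFN-γ alone and at 52 to 71 in LE+IFN-γ, 33 to 57 in SE+IFN-γ and 5 to 12 in PE+IFN-γ. Against a floor of 3 reads per library it was at least 18.4-fold, 13.4-fold and 2.59-fold higher. Cish and Csf3 had too few reads in IFN-γ alone and were tested only through groups with a peptide. The counts of inhibitors and ligands that hold them are therefore not to be read against the shares of all genes.

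Of 12 genes listed as known STAT3 targets, IFN-γ alone called 2 higher (Myc 1.72 and Bcl2l1 0.87) and 2 lower (Mcl1 -1.10 and Fos -1.08). LE added to IFN-γ called 4, all higher: Myc (log2 2.49), Il1rn (1.81), Hif1a (0.97) and Bcl6 (0.80). SE called 3 higher, Myc (1.83), Il1rn (1.38) and Bcl3 (0.62), and PE 0. Of all genes, IFN-γ alone called 18.1%, LE 15.5%, SE 7.39% and PE 0.629%. Il1rn, which encodes the antagonist of the interleukin-1 receptor, was at 142 ± 35.3 CPM in IFN-γ, 494 ± 34.2 in LE+IFN-γ, 364 ± 46.9 in SE+IFN-γ and 117 ± 13.4 in PE+IFN-γ. Over the list, the median difference was 0.16 with LE, 0.32 with SE and 0.07 with PE, against -0.01, -0.01 and -0.00 over all genes.

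The HLA-labelled libraries are given as labelled, as a description. Pim1 was at 142 ± 8.59 CPM in the libraries labelled LE and 91.1 ± 11.7 CPM in those labelled PE, at 34.9 ± 0.625 and 30.1 ± 2.89 CPM in those labelled LE+IFN-γ and PE+IFN-γ, and at 19.2 to 20.4 CPM (means) in the other 4 groups. Jak1 was likewise highest under the labels LE (451 ± 43.8 CPM) and PE (462 ± 17.9 CPM) and at 220.3 to 228 CPM (means) under the labels PBS, SE, IFN-γ and SE+IFN-γ. Socs3 was at 17.2 ± 0.753 and 13.5 ± 2.75 CPM under the labels LE and PE and at 7.11 ± 1.13 and 7.63 ± 2.22 CPM under LE+IFN-γ and PE+IFN-γ. Socs1 was at 3.93 ± 0.464 CPM under the label PE+IFN-γ and between 2.35 and 2.71 CPM under LE, PE and LE+IFN-γ. These values stand under the labels, while the columns stand in the deposited table beside letter-named groups other than the labelled ones. No condition was assigned from that order.

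**Figure D4:**
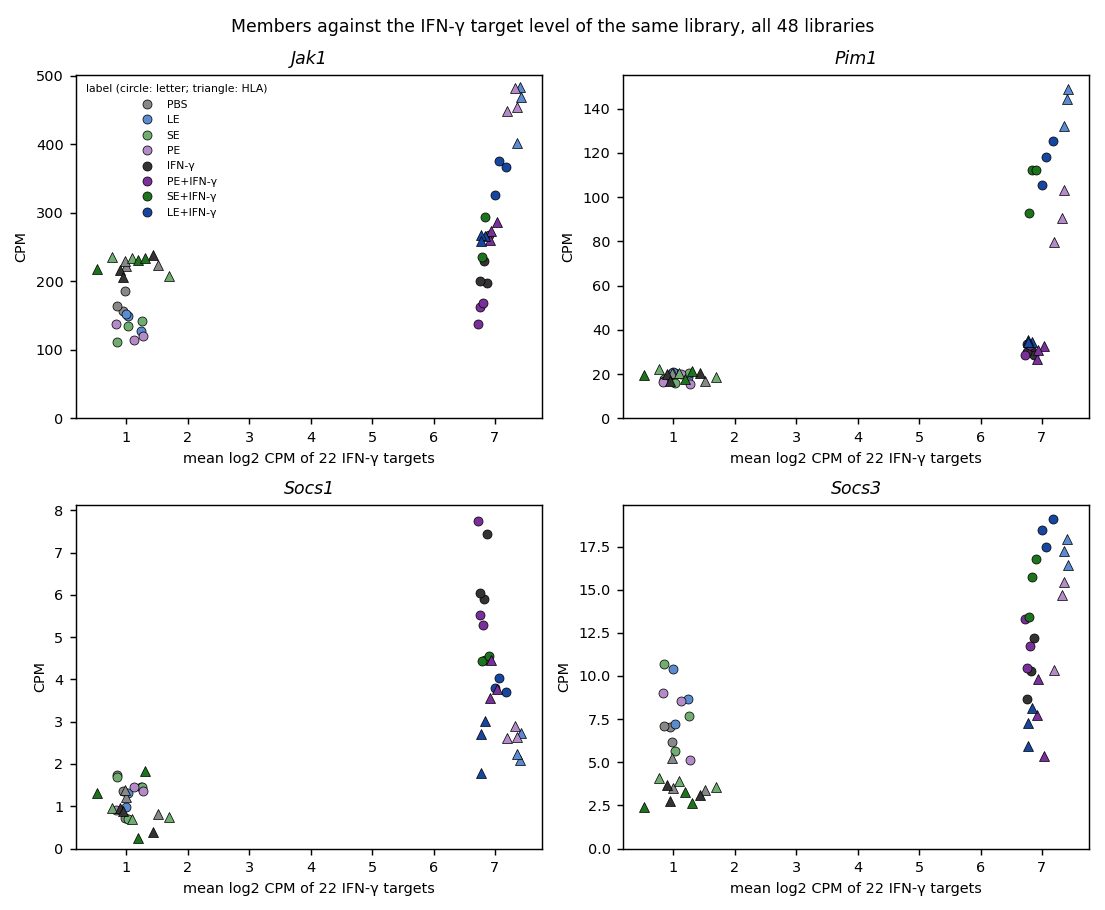
CPM of Jak1, Pim1, Socs1 and Socs3 against the averaged log2 CPM of the 22 targets of IFN-γ in all 48 libraries, with circles for letter-labelled and triangles for HLA-labelled libraries and colors for the labelled group. The HLA-labelled LE and PE libraries lie at 7.19 to 7.43 on the horizontal axis, above the letter-labelled libraries with IFN-γ.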

How the data were processed

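RNA from 48 RAW264.7 libraries was prepared with a stranded poly(A) kit and sequenced in single-end reads of 100 bases. The authors counted uniquely aligned reads per gene with featureCounts on GENCODE annotation of GRCm38.p5 and deposited the counts in 1 table without normalization. The aligner was not given in the sources used here, and the authors' own tests used DESeq2 1.16.1 in R 3.4.1. The table holds 49568 genes, of which 26 have names turned into dates and 4 rows repeat a name.

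Counts were normalized by the trimmed mean of M values, filtered by filterByExpr and tested with the edgeR 4.0.16 quasi-likelihood F test in R 4.3.3 (prior count 0.125, Benjamini-Hochberg over all genes tested). A gene was called at an adjusted p under 0.05 and a fold over 1.5. SE is the log2 fold change over the root of F, and intervals are 95%. IFN-γ against PBS was fitted on its 2 groups, the Model A contrasts and the pairs of peptides on the 4 groups with IFN-γ, Model B on 6, peptides alone on 4 and interactions on 8. CPM (counts per 1000000) used the library total. Exon lengths and gene coordinates are from GENCODE M21 (GRCm38). The fit was tested on simulated data. The members, gene lists and choice of letter-labelled libraries were set with earlier results of these data known. Named were the members, up to 3 called genes per direction, list and comparison with the largest fold (Osm and Bcl6 were added after their values were seen) and, for Socs1, Socs3 and Pim1 the 3 genes with the highest r. The 22 IFN-γ targets served to check the labels, and 1 list of the pathway is not reported here.

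No 2 replicates agreed within sampling noise (lowest chi-square per degree of freedom 3.89 over 48 pairs). Libraries held 14115928 to 42574154 counts, and depth limits Socs1, at 17 to 37 reads in PBS, more than the other members. Alternatives were the HLA-labelled libraries, alone or added with or without a series block, a replicate block, each replicate left out, DESeq2 1.42.0, total counts, no filter, 1 fit of all 8 groups, no minimum fold and, chosen after seeing the data, the subtraction of the median log2 fold change of the genes nearest in exon length.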

Additional observations from a re-analysis of the deposited data

Results flagged for a closer look

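The effect of IFN-γ differed between cells with and without a peptide, by the interaction term of the fit over 8 groups, for Pim1 with LE (log2 1.80, from 0.73 without peptide to 2.52 with LE) and with SE (1.82, to 2.54). The same test was passed by Jak1, with LE (0.96, from 0.32 to 1.29) and with SE (0.67, to 0.99). The 2 interactions of each gene share the PBS and IFN-γ libraries. The HLA-labelled libraries labelled LE and PE, which carry no IFN-γ in their labels, averaged, as log2 CPM over the IFN-γ targets, 7.36 and 7.19 or more, while the letter-labelled libraries without IFN-γ were at 1.26 or less.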

How the results depend on the processing

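Of the called changes, those of Pim1, Jak1, Socs1 and Socs3 under LE added to IFN-γ and of Pim1 under SE held in the letter-labelled libraries with DESeq2, total counts, no filter, 1 fit of all 8 groups, the replicate block and without each replicate. The number of members called moved past 1.5 times in few of these. For SE added to IFN-γ it was 2 with DESeq2, with no filter and with 1 fit of all 8 groups, since Socs3 reached 1.5-fold (main count 1). Over all genes these settings called 884, 999 and 864 (main count 940). Leaving out 1 replicate at a time gave 1 to 2 members for SE Model A and 1 to 2 for the SE interaction. Over all genes it gave 738 to 936 for SE Model A (main count 940) and 551 to 1193 for the SE interaction (1043). Members called were 4 to 6 for IFN-γ alone (main count 5), 3 to 6 for LE against PE (4), 7 to 8 for LE Model B and 5 to 7 for PE Model B (7 each). Over all genes the same fits called 1934 to 2113 for IFN-γ alone (main count 2213) and 2138 to 3028 for LE against PE (2752). For LE and PE Model B they called 4176 to 4494 (4539) and 2353 to 2633 (2715). With no minimum fold, members called were 8 for IFN-γ alone, 8, 6 and 1 for LE, SE and PE Model A, 3 for LE against SE, 9 for LE against PE, 8 for SE against PE, 1 and 2 for SE and PE alone, and 4 for the LE interaction. The same rule passed 4855 of 12242 genes for IFN-γ alone and 6419, 4243 and 1274 of 12720 for LE, SE and PE Model A. For LE against SE, LE against PE and SE against PE it passed 4525, 7621 and 4373 of 12720. For SE and PE alone it passed 1782 and 2479 of 12420, and for the LE interaction 5037 of 13096. Whether libraries with the same replicate number were handled together is not given, and these correlations cannot settle it. In 0 of the 13 pairs of groups compared were all 3 correlations of same-numbered deviations over 0.1 (9 of 39 were, range -0.103 to 0.235). Between LE, SE and PE without IFN-γ, which were not compared with each other but share a fit, all were over 0.1 (up to 0.230). With the replicate block the members called were 5, 4, 1 and 0 for IFN-γ alone and the 3 Model A contrasts and 0 for each peptide alone, as without it. With the median of genes of similar exon length taken off, 5 called differences fell under 1.5-fold, of Socs3 for IFN-γ alone and PE Model B, Stat3 for PE Model B, Socs1 for LE against PE and Jak1 for the SE interaction. Depth limits Socs1 most.

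The HLA-labelled libraries, 12 of which go against their labels, gave other results when tested as labelled. Counts over all genes are given beside those of members, without shares, since the numbers tested in these fits are not given here. Alone, members called were 0 for IFN-γ alone and 5, 0 and 5 for LE, SE and PE Model A. Over all genes there were 0, and 1929, 10 and 1890. Members called were 6, 0 and 5 for LE against SE, LE against PE and SE against PE, and 3, 0 and 3 for LE, SE and PE Model B. Over all genes there were 2236, 19 and 2051 for the pairs and 2593, 21 and 2140 for Model B. For LE, SE and PE alone members called were 6, 0 and 6, and for the interactions 3, 0 and 2. Over all genes there were 4065, 0 and 3627 for peptides alone and 2495, 0 and 2145 for the interactions. The main counts of 4 for LE Model A and 2 for the LE interaction were close in number, but the differences behind them were not alike. For LE Model A, Socs1 was at 1.73 in the HLA-labelled libraries and -0.73 in the letter-labelled ones. The LE interactions of Jak1 and Pim1 were -0.87 and -2.14 in the HLA-labelled libraries and 0.96 and 1.80 in the letter-labelled ones. With both kinds of library in 1 fit 0 members were called in any comparison, and the largest count over all genes was 271, for PE Model B. With the series as a block members called were 2 for LE Model A, 1 for LE against PE, 1 for PE Model B, 2 for LE alone and 1 for PE alone, and 0 elsewhere. Over all genes those comparisons called 1048, 374, 882, 1123 and 932.

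Of the log2 differences called in the letter-labelled or in the HLA-labelled libraries, those of opposite sign in the HLA-labelled libraries alone were these, and others that were called in neither also changed sign. IFN-γ against PBS gave 0.038 for Ifngr2, -0.22 for Stat2, -0.63 for Socs1, -0.33 for Socs3 and -0.0082 for Pim1. LE Model A gave 1.20 for Stat2 and 1.73 for Socs1, and PE Model A 1.37 for Stat2, 0.59 for Stat3 and 2.38 for Socs1. LE against SE gave 1.18 for Stat2 and 1.12 for Socs1, and LE against PE -0.068 for Jak1 and -0.12 for Socs3. SE against PE gave -0.23 for Jak1, -1.35 for Stat2, -0.70 for Stat3, -1.45 for Socs3 and -0.58 for Pim1. LE Model B gave -0.90 for Jak1, -0.068 for Stat2, -0.39 for Stat3, -0.012 for Socs1, -1.39 for Socs3 and -2.15 for Pim1. SE Model B gave -0.18 for Jak2, -0.15 for Stat3, -0.48 for Socs3 and -0.054 for Pim1. PE Model B gave -0.80 for Jak1, -0.082 for Jak2, -0.26 for Stat3, -0.85 for Socs3 and -1.64 for Pim1. LE against PBS gave 1.11 for Jak1 and 1.05 for Stat2, and PE against PBS 1.08 for Jak1, 0.87 for Stat2, 0.72 for Stat3 and 2.27 for Pim1. The interactions gave -0.87 for Jak1, -1.06 for Socs3 and -2.14 for Pim1 with LE, -0.046 for Pim1 with SE and -1.63 for Pim1 with PE. With both kinds of library, LE Model B gave -0.020 for Jak1, -0.10 for Socs3 and -0.19 for Pim1. There PE Model B gave -0.16 for Socs3 and -0.85 for Pim1, and the LE interaction gave -0.15 for Jak1 and -0.57 for Pim1. With the series as a block, LE Model A gave 0.22 for Socs1, LE Model B -0.30 for Socs3 and -0.046 for Pim1, PE Model B -0.28 for Socs3 and -0.78 for Pim1, and the LE interaction -0.54 for Pim1. In the deposited table the HLA-labelled columns stand beside letter-named groups other than the labelled ones, and these values may belong to other conditions. The cause was not tested.

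Counts over all genes moved most where few were called. PE Model A had 80 genes called, 31 with DESeq2, 24 with 1 fit of all 8 groups, 152 with no filter and 4 to 250 with a replicate left out. Peptides alone had 3, 239 and 389 (LE, SE, PE), and 0 to 1, 3 to 419 and 0 to 1021 with a replicate left out. For PE Model A and for SE and PE alone the lowest count was without replicate 1 and the highest without replicate 2. For LE alone the count was 7 with 1 fit of all 8 groups or the replicate block and 57 with no filter. The PE interaction had 0, 61 with no filter, and the SE interaction 1043, 551 without replicate 1. With no minimum fold, 4855 genes passed for IFN-γ alone (2213 with it), 6419, 4243 and 1274 for LE, SE and PE Model A (1972, 940 and 80) and 4525, 7621 and 4373 for the pairs of peptides (627, 2752 and 966). For Model B they were 8530, 7445 and 6457 (4539, 3410 and 2715), for SE and PE alone 1782 and 2479, and for the LE and SE interactions 5037 and 2594 (2471 and 1043). In the HLA-labelled libraries alone the counts were 0 for IFN-γ alone, 1929, 10 and 1890 for Model A and 2236, 19 and 2051 for the pairs. There they were 2593, 21 and 2140 for Model B, 4065, 0 and 3627 for peptides alone and 2495, 0 and 2145 for the interactions. With both kinds of library they were 1 for IFN-γ alone, 110, 0 and 0 for Model A, 1, 0 and 0 for the pairs, 21, 0 and 271 for Model B, 0 for each peptide alone and 0 for the LE and SE interactions. With the series as a block they were 40 for IFN-γ alone, 1048, 7 and 1 for Model A and 502, 374 and 439 for the pairs. With this block they were 664, 4 and 882 for Model B, 1123, 0 and 932 for peptides alone and 1, 0 and 1 for the interactions.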
